A study of Arabidopsis thaliana with 4 samples.

Results

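This report describes 10 regulator genes of seed coat differentiation, listed by gene identifier from their known roles, with earlier results of these data known: AP2, NARS1, NARS2, MYB61, DF1, KNAT7, KNAT3, BLH2, BLH4 and LUH. All 10 were found among the 33187 identifiers of the expression table, and all 10 were among the 20804 genes that passed the filter on low values (at least 1 TPM in at least 2 of the 4 libraries). RNA came from whole developing seeds of Arabidopsis thaliana, 7 days after anthesis, with embryos between the torpedo and the linear stage. There were 2 libraries of the wild type and 2 libraries labelled erf4, a T-DNA insertion line (SALK_073394, a single allele, erf4_2 in the titles) of the gene for ERF4, an ethylene response factor that represses transcription. No treatment is given for either group, and the sources used here name no ecotype. The values are TPM (a transcript's share of all transcripts in the library, corrected for length), so levels can be set side by side between genes, while the depth of each library is unknown. Because the seeds were not dissected, fewer cells of a type and less RNA per cell cannot be told apart.

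The seed coat develops from the integuments of the ovule. Its outer epidermis fills with mucilage, a pectin-rich polysaccharide gel that swells out when the mature seed is wetted, and then builds a secondary wall, while the inner layer makes tannins. Fate is set in the integument by factors such as AP2, and later factors act on mucilage synthesis, on its modification, or on the wall. The 10 genes fall into these roles. AP2, NARS1 and NARS2 act early in the integuments; MYB61, DF1, KNAT7 and KNAT3 are tied to mucilage and wall deposition; BLH2, BLH4 and LUH act on genes that modify mucilage pectin.

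AP2 is a known target of the microRNA miR172, and the site lies within its coding sequence. The mature 3′ arms of the miR172 genes are shown 5′ to 3′ from RefSeq (TAIR10.1) with the seed, bases 2 to 8, in capitals. They share 1 seed.
ath-miR172a: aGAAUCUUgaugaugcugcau
ath-miR172c: aGAAUCUUgaugaugcugcag
ath-miR172e-3p: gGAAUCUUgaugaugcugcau
The matching coding sites of AP2 and its 5 closest relatives (TAIR10.1, coding strand) are shown because they mark a stretch largely common to all. For SMZ and SNZ the longest run identical to AP2 lay outside the site. Capitals mark bases that depart from the full complement of the nearest miR172 sequence.
AP2: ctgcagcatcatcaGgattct
TOE1: cAgcagcatcatcaGgattct
TOE2: atgcagcatcatcaGgattct
TOE3: TGgcagcatcatcaGgattct
SMZ: TtgcagcatcatcaGgattcc
SNZ: TtgTagcatcatcaGgattcc
AP2 and TOE2 each departed from the complement at 1 base and TOE3 and SNZ at 3. AP2 was also the most abundant of the 6 transcripts in every library, as given below. The 5 MIR172 genes are listed at 0 TPM in every library, which says nothing of the mature microRNA.

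Paralogues can share reads, so the longest identical run between spliced transcripts was found for each related pair. The longest runs of KNAT3, BLH2 and NARS1 with a relative are shown from the annotated coding sequence (TAIR10.1).
KNAT3 and KNAT4: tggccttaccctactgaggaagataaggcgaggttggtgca
BLH2 and BLH4: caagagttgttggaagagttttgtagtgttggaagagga
NARS1 and NARS2: aaatttgatccatgggaacttcccgc
The longest was 41 bases, between KNAT3 and KNAT4, within the part that encodes the homeodomain. BLH2 and BLH4 shared 39 bases, DF1 and its relative GTL1 31, and KNAT7 and KNAT5 31. Runs of 26 bases were shared by NARS1 and NARS2, AP2 and TOE3, AP2 and SNZ, and DF1 and GT2L. Shorter runs were those of DF1 and GT2 (20), KNAT3 and KNAT7 (18), and LUH and LUG (17). Of the 10 genes, DF1 (chromosome 1) alone overlapped another annotated gene: the long noncoding RNA gene AT1G76878 lies on the opposite strand and covers all 2386 exonic bases of DF1. The labels do not say that reads were counted by strand, so reads of DF1 and of AT1G76878 cannot be told apart; the latter was listed at 5.18 and 10.9 TPM in wild-type seeds and 9.84 and 8.71 TPM under the erf4 label.

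The ERF4 transcript itself was 38.0 and 33.0 TPM in wild-type seeds and 34.6 and 41.3 TPM under the erf4 label, so its level does not check the labels, and every direction below rests on the labels. The seed markers were present. Each of the 6 markers of the seed coat epidermis was detected in every library. Their summed level was 15756 to 23394.5 TPM in the wild type and 8529 to 13013 TPM in the libraries labelled erf4, with TBA2 (AT1G62060) the largest part and the only one of the 6 below the wild-type range; 3 lay above it. The 5 embryo markers, none at 0, summed to 14884 and 9610 TPM in the wild type, 14501 TPM in erf4 replicate 1 and 886 TPM in erf4 replicate 2. The sum is mostly that of the storage genes CRA1, OLEO1 and SESA3, all 3 lowest in erf4 replicate 2, whereas FUS3 was lowest in erf4 replicate 1 and LEC1 lay above the wild-type range (3 of the 5 lay below it). The 5 endosperm markers, none at 0, summed to 1233 to 1579 TPM in the wild type and 698 to 838 TPM under the erf4 label. EPR1 held most of that sum and was the 1 marker of the 5 below the wild-type range; PHE1, FWA, FIS2 and ZOU, the other 4, lay above it. The 6 silique wall and leaf markers, none at 0, summed to 692 to 1097 TPM and 1299 to 1471 TPM (5 above the range, 1 below), and the 5 inner seed coat markers, none at 0, to 897 to 1033 TPM and 1154 to 1316 TPM (3 above, 1 below). The part of these differences in the results below was not tested.

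All 10 regulators were transcribed at moderate to high levels, and their order was largely kept between libraries. NARS1 was the most abundant, at 201 to 255 TPM over the 4 libraries, followed by KNAT7 at 120 to 148 TPM. Both stood clear of the next gene in every library. NARS2, LUH and MYB61 followed, with overlapping ranges and means of 94.1, 93.1 and 85.3 TPM. KNAT3 overlapped MYB61 in range, yet was lower than MYB61 within each of the 4 libraries. A gap separated KNAT3, never under 58.4 TPM, from BLH2, BLH4, AP2 and DF1, none of which passed 44.1 TPM. BLH2 and BLH4 could not be ordered, each being higher in 2 libraries, and DF1 was the lowest of the 10 in every library.

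**Figure D1:**
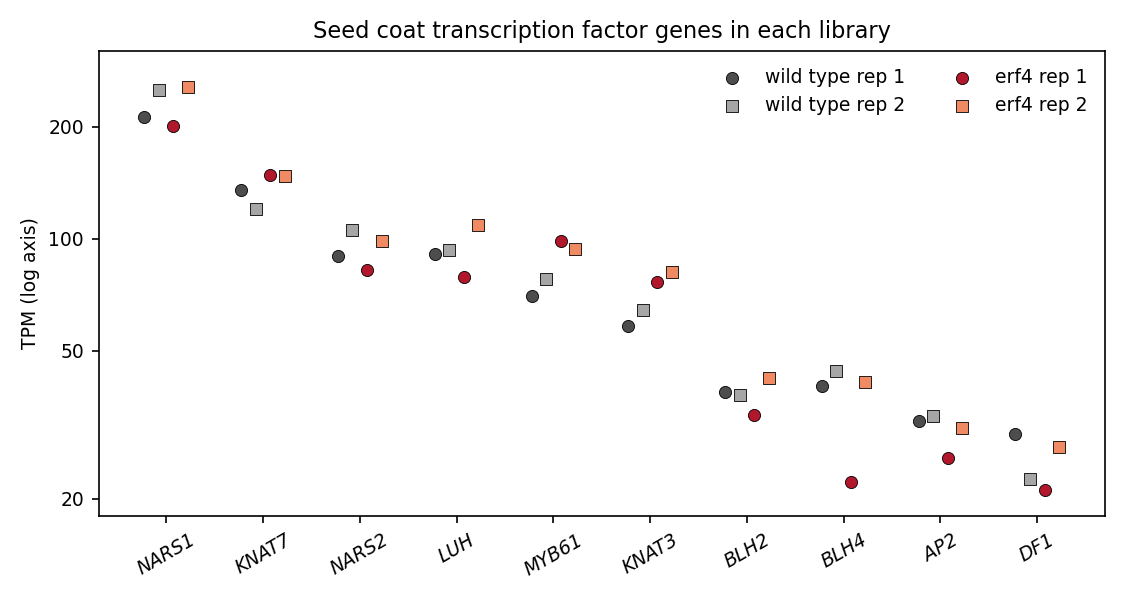
TPM of each of the 10 genes (log axis) in the 4 libraries, genes ordered by mean; circles are replicate 1 and squares replicate 2, grey for the wild type and red or orange for the libraries labelled erf4. NARS1 lies highest and DF1 lowest in every library, and BLH4 in erf4 replicate 1, at 22.3 TPM, lies far below its other 3 values.

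No regulator was called different between the genotypes. Limma, run on log2(TPM + 1) across all 20804 tested genes with Benjamini-Hochberg adjustment, called 0 of the 10 at an adjusted p under 0.05, beside 0% of all tested genes. At an unadjusted limma p under 0.05 there were 2 of the 10 (MYB61 and KNAT3, both higher), beside 6.98% of all tested genes in either direction, 4.23% higher and 2.74% lower. Of the 10 estimates, 4 estimates were positive and 6 negative, with a median log2 fold change of -0.03; over all tested genes 55.9% were positive and the median was 0.03. Both libraries labelled erf4 lay above the wild-type range for 3 genes (MYB61, KNAT7 and KNAT3), where 21.5% of all tested genes did so, and below it for 1 (AP2), where 12.2% did. The 95% confidence intervals of 9 of the 10 stayed inside a 2-fold change in either direction; BLH4 was the exception. A pair of libraries against a pair cannot give an exact two-sided permutation p under 0.333, and separate growths are not stated for the libraries, so the p-values reflect differences among these 4 libraries that could be technical in origin.

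**Figure D2:**
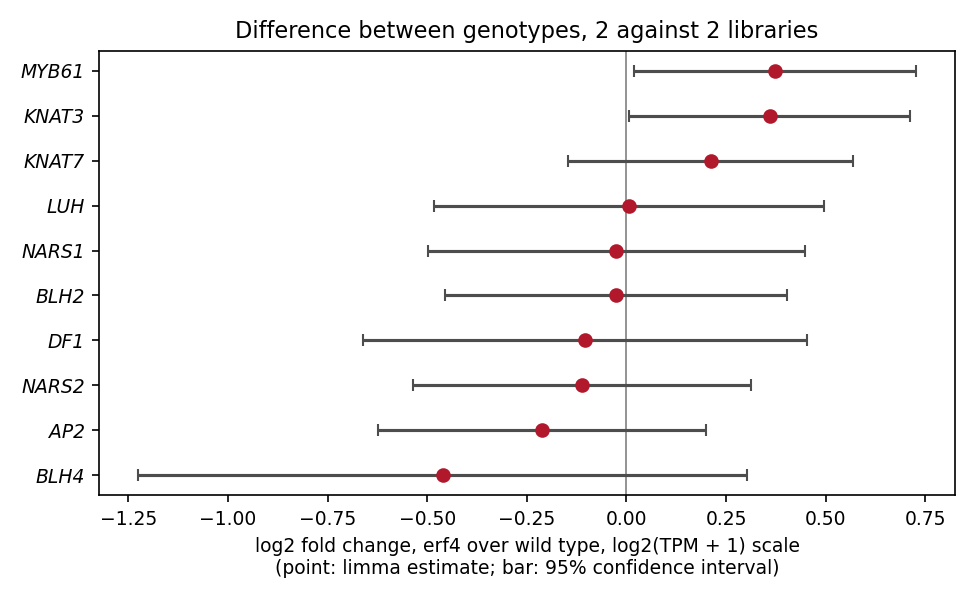
Log2 fold change of each gene on the log2(TPM + 1) scale, libraries labelled erf4 over wild type; points are limma estimates from 2 against 2 libraries and bars 95% confidence intervals. The intervals of MYB61 (0.02 to 0.73) and KNAT3 (0.01 to 0.71) leave out 0, the other 8 include it, and that of BLH4 is the widest.

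Among the early integument regulators, AP2 (AT4G36920, chromosome 4, 10 exons), the floral homeotic factor without which the outer seed coat layers do not differentiate, measured 32.5 and 33.3 TPM in wild-type seeds and 25.8 and 31.0 TPM under the erf4 label. The groups did not overlap, though erf4 replicate 2 was nearer to the wild type than to the other erf4-labelled library. The limma estimate was a log2 fold change of -0.21 with an SE of 0.16 (adjusted p = 0.983), and it was -0.08 without erf4 replicate 1.

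NARS1 (AT3G15510, chromosome 3) and NARS2 (AT1G52880, chromosome 1) encode NAC factors that act redundantly in the integuments on seed shape and embryo growth. NARS1 had 213 and 250 TPM in wild-type seeds and 201 and 255 TPM under the erf4 label, and NARS2 had 89.9 and 105.6 TPM against 82.5 and 98.4 TPM. For both genes the groups overlapped, and replicate 2 exceeded replicate 1 in each genotype. The log2 fold changes, -0.03 (SE 0.19) and -0.11 (SE 0.17), were smaller than the difference between replicates of either genotype. The pair varied together: the ratio of NARS1 to NARS2 was 2.37 in both wild-type libraries and 2.44 and 2.60 in the libraries labelled erf4.

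The regulators tied to mucilage and wall deposition included the 3 genes above the wild-type range. MYB61 (AT1G09540, chromosome 1, 3 exons), an R2R3 MYB factor required for full mucilage deposition, had 70.3 and 78.2 TPM in wild-type seeds and 98.9 and 93.7 TPM under the erf4 label. The lower erf4-labelled value was well above the higher wild-type value. Its mean went from 74.3 ± 5.54 to 96.3 ± 3.64 TPM (SD, n = 2 libraries), a ratio of 1.30, with a log2 fold change of 0.37 (SE 0.14; limma adjusted p = 0.691).

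KNAT3 (AT5G25220, chromosome 5, 6 exons) and KNAT7 (AT1G62990, chromosome 1, 5 exons) encode class II KNOX homeodomain proteins, which pair with BELL proteins to act on DNA; both have been linked to mucilage and to secondary walls. KNAT3 had 58.4 and 64.4 TPM in wild-type seeds and 76.7 and 81.3 TPM under the erf4 label (log2 fold change 0.36, SE 0.14; limma adjusted p = 0.710). KNAT7 had 135 and 120 TPM against 148 and 148 TPM (log2 fold change 0.21, SE 0.14; limma adjusted p = 0.948). Neither gene's groups overlapped as deposited, but KNAT7 overlapped once the columns were rescaled by median of ratios, which left MYB61 and KNAT3 above the range. For these 3 genes the fold change exceeded the larger of the 2 replicate differences, which held for 22.2% of all tested genes. KNAT3 stood at 0.43 and 0.54 of the KNAT7 level in the wild type and at 0.52 and 0.55 in the libraries labelled erf4, so the ratio within a library overlapped between groups.

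DF1 (AT1G76880, chromosome 1, 2 exons), a trihelix factor of the GT-2 type tied to mucilage polysaccharide synthesis, had 29.9 and 22.6 TPM in wild-type seeds and 21.2 and 27.5 TPM under the erf4 label, with overlapping groups and a log2 fold change of -0.10 (SE 0.22). Its relative GT2 (AT1G76890) is the next annotated gene on chromosome 1, 4826 bases away on the opposite strand. The levels of GT2 were 24.4 and 17.9 TPM against 51.9 and 42.8 TPM. A long noncoding RNA gene overlaps GT2 as well, listed at 0 TPM in 3 libraries and 0.79 TPM in erf4 replicate 2. GT2 was lower than DF1 in both wild-type libraries and higher than DF1 in both libraries labelled erf4. The ratio of DF1 to GT2 was 1.23 and 1.26 in the wild type and 0.41 and 0.64 in the libraries labelled erf4, a difference of -1.28 on the log2 scale with a pooled SD of 0.33. GT2 had a log2 fold change of 1.13 (SE 0.21, 95% confidence interval 0.60 to 1.67), between 0.92 and 1.35 when any single library was left out, and was not called over all genes (limma adjusted p = 0.455).

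Among the regulators of mucilage pectin, BLH2 (AT4G36870, chromosome 4) and BLH4 (AT2G23760, chromosome 2) encode BELL homeodomain proteins that act redundantly, also in leaf shape, and activate the pectin methylesterase gene PME58. BLH2 had 38.7 and 38.1 TPM in wild-type seeds and 33.6 and 42.3 TPM under the erf4 label, so the erf4-labelled pair enclosed the wild-type pair (log2 fold change -0.03, SE 0.17). BLH4 had 40.2 and 44.1 TPM against 22.3 and 41.2 TPM. Only erf4 replicate 1 was low, and erf4 replicate 2 lay within the wild-type range. The BLH4 log2 fold change of -0.46 (SE 0.30, limma adjusted p = 0.939) was the most negative of the 10; leaving out erf4 replicate 1 gave -0.03, and leaving out erf4 replicate 2 gave -0.89. The ratio of BLH2 to BLH4 was 0.96 and 0.87 in the wild type, and 1.51 and 1.03 in the libraries labelled erf4.

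LUH (AT2G32700, chromosome 2, 19 exons), also called MUM1, encodes a co-regulator of the Groucho and TUP1 type that activates mucilage-modifying enzyme genes in the epidermis. It had 91.3 and 93.2 TPM in wild-type seeds and 78.8 and 109 TPM under the erf4 label, which lay on either side of the wild type (log2 fold change 0.01, SE 0.19). Its relative LUG (AT4G32551) was less abundant, at 21.1 and 19.7 TPM against 21.5 and 23.9 TPM. LUH exceeded LUG by 4.33-fold and 4.73-fold in the wild type and by 3.66-fold and 4.55-fold in the libraries labelled erf4, and those ratios overlapped.

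**Figure D3:**
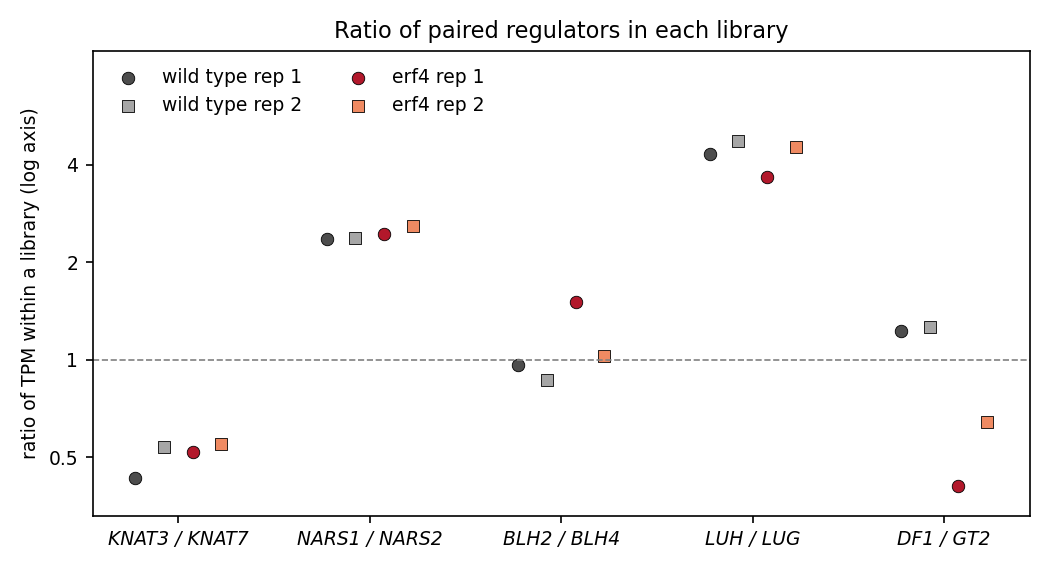
Ratio of TPM of 5 pairs of related regulators within each library (log axis; dashed line, equal levels; circles replicate 1, squares replicate 2; grey wild type, red or orange the libraries labelled erf4). The groups overlap for KNAT3 over KNAT7 and for LUH over LUG, and the widest separation is DF1 over GT2, above 1 in both wild-type libraries and below 1 in both libraries labelled erf4.

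Across these 5 pairs, the exact two-sided permutation p of the ratio was 0.333 for NARS1 to NARS2, BLH2 to BLH4 and DF1 to GT2, the smallest that 2 against 2 libraries allow, and 0.667 for the other two; adjusted over the 5 pairs these were 0.556 and 0.667. Multiplying all values of a library by 1 factor, as in median-of-ratios rescaling, cannot alter such ratios, whereas quantile normalization can.

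For 7 of the 10 (AP2, NARS1, NARS2, DF1, BLH2, BLH4 and LUH) erf4 replicate 1 was the lowest of the 4 libraries, as it was for 42.5% of all tested genes. The same 7 genes were lowest there after rescaling by median of ratios or by quantiles, where the shares of all tested genes were 30.1% and 32.4%. MYB61 and KNAT3 were lowest in wild type replicate 1 (16.7% of all tested genes) and KNAT7 in wild type replicate 2 (32.3%). Erf4 replicate 2 was lowest for none of the 10 (8.57%). It exceeded erf4 replicate 1 for 8 of the 10 (70.5%), and wild type replicate 2 exceeded wild type replicate 1 for 7 (47.7%). The median absolute difference between replicates was 0.29 on the log2 scale between the libraries labelled erf4 and 0.14 between the wild-type libraries, and the median absolute log2 fold change was 0.16. Over all tested genes the same medians, in the same order, were 0.27, 0.18 and 0.15. The embryo storage genes, given above, were low in the other erf4-labelled library; what part that has in the members' values was not tested. Without erf4 replicate 1 the median log2 fold change of the 10 genes was 0.14, and without erf4 replicate 2 it was -0.21.

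**Figure D4:**
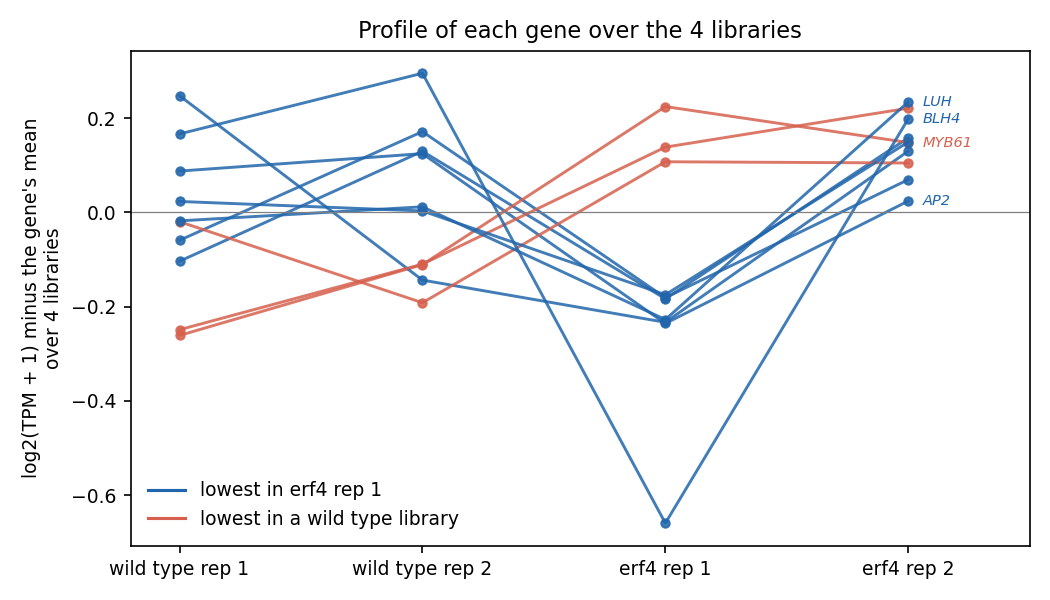
Level of each gene in each library as log2(TPM + 1) minus its mean over the 4 libraries; lines join the values of 1 gene and imply no order. The 7 genes in blue are lowest in erf4 replicate 1, where BLH4 drops furthest, and the 3 in red (MYB61, KNAT3 and KNAT7) are lowest in a wild-type library.

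The relatives of the 10 genes formed a list of 28 paralogues, of which 23 were tested. The log2 fold change was above 0 for 15 and below 0 for 8, with a median of 0.10. Both libraries labelled erf4 exceeded the wild type for 5 and fell short of it for 3, beside 21.5% and 12.2% of all tested genes. None of the list was called by limma, and 1 had an unadjusted limma p under 0.05, beside 6.98% of all tested genes. GT2, GT2L (AT5G28300) and BLH10 (AT1G19700) had the smallest p in it. GT2L, another GT-2 type gene, had 18.2 and 11.6 TPM in wild-type seeds and 10.47 and 10.07 TPM under the erf4 label (log2 fold change -0.47, SE 0.25), opposite in sign to GT2. BLH10, a BELL gene, had 29.98 and 27.58 TPM against 33.3 and 33.1 TPM (0.20, SE 0.14). Of the 11 other BELL genes, 10 were tested, with 6 positive and 4 negative and a narrow span from -0.28 to 0.22. BLH1 (AT2G35940) is added here for its high level, 97.4 and 84.8 TPM against 87.6 and 108 TPM; it was above BLH2 and BLH4 in every library. A long noncoding RNA gene overlaps it too, listed at 0.59 to 0.87 TPM. In the AP2 clade, TOE2 (AT5G60120) and TOE3 (AT5G67180) ranged from 8.50 to 16.1 TPM, TOE1 (AT2G28550) from 1.10 to 2.44 TPM, and SMZ and SNZ, at up to 1.54 TPM, did not pass the filter. Class I KNOX genes, which act in meristems, reached at most 16.1 TPM, whereas the class II genes KNAT4 (AT5G11060) and KNAT5 (AT4G32040) stood between 16.6 and 35.0 TPM.

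The partners of these regulators and other factors of the same pathway numbered 16, and 15 were tested. The estimate was above 0 for 9 and below 0 for 6 (median 0.09). Both libraries labelled erf4 exceeded the wild type for 4 and fell short of it for 1, beside 21.5% and 12.2% of all tested genes. None of the list was called by limma, and 2 had an unadjusted limma p under 0.05, beside 6.98% of all tested genes. The smallest p belonged to MYB5, TT2 and GL2. MYB5 (AT3G13540), a MYB factor of the outer seed coat, had 38.8 and 40.1 TPM in wild-type seeds and 54.5 and 50.1 TPM under the erf4 label (log2 fold change 0.40, SE 0.14; limma adjusted p = 0.652). TT2 (AT5G35550), which directs tannin synthesis in the inner layer, had 20.5 and 15.4 TPM against 29.9 and 24.7 TPM (0.58, SE 0.21; limma adjusted p = 0.657). GL2 (AT1G79840), a homeodomain factor of the epidermis, had 97.1 and 97.3 TPM against 109 and 144 TPM (0.36, SE 0.18; limma adjusted p = 0.828). The groups did not overlap for any of these 3 genes. The adaptor genes that link LUH and LUG to DNA-binding factors, SEU (AT1G43850), SLK1 (AT4G25520) and SLK2 (AT5G62090), had log2 fold changes of 0.03, -0.15 and -0.16, and each was lowest in erf4 replicate 1; these adaptors were picked out with their values known.

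Of 10 mucilage and wall genes downstream in the seed coat pathway, all tested, 6 had an estimate above 0 and 4 below (median 0.29). Both libraries labelled erf4 exceeded the wild type for 4 and fell short of it for 2, beside 21.5% and 12.2% of all tested genes. An unadjusted limma p under 0.05 was found for 5 (3 higher, 2 lower), beside 6.98% of all tested genes (4.23% higher, 2.74% lower). GATL5 (AT1G02720), among the lower ones, had the most negative estimate of the list (-1.45, SE 0.36, limma adjusted p = 0.521). None was called. Several of these genes were listed with their behaviour in these libraries known, so the counts are not independent evidence. IRX9 (AT2G37090), a xylan synthesis gene under KNAT7 control in stems, had 57.0 and 81.6 TPM in wild-type seeds and 24.9 and 33.7 TPM under the erf4 label. The log2 fold change of IRX9 was -1.21 (SE 0.24; limma adjusted p = 0.461), whereas IRX14 (AT4G36890), which acts in the same pathway, stood at 0.04 (SE 0.18). PRX36 (AT3G50990), a wall-loosening peroxidase gene of the epidermis, stood at 1.67 (SE 0.37; limma adjusted p = 0.461). PME58 (AT5G49180), the target of BLH2 and BLH4, stood at 1.06 (SE 0.25; limma adjusted p = 0.489), with its 2 activators at -0.03 and -0.46. The BLH4 value was -0.03 without erf4 replicate 1, and a link between these values and PME58 was not tested. Of the genes under LUH, with LUH itself at 0.01, the galactosidase gene MUM2 (AT5G63800) had 88.4 and 154 TPM against 55.7 and 159 TPM, while SBT1.7 (AT5G67360) and BXL1 (AT5G49360) stood at 0.67 and 0.56. GATL5, IRX14, MUM2, SBT1.7 and BXL1 were also picked out with their values known. MUM2 overlapped between groups and, like 7 of the regulators, was lowest in erf4 replicate 1.

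**Figure D5:**
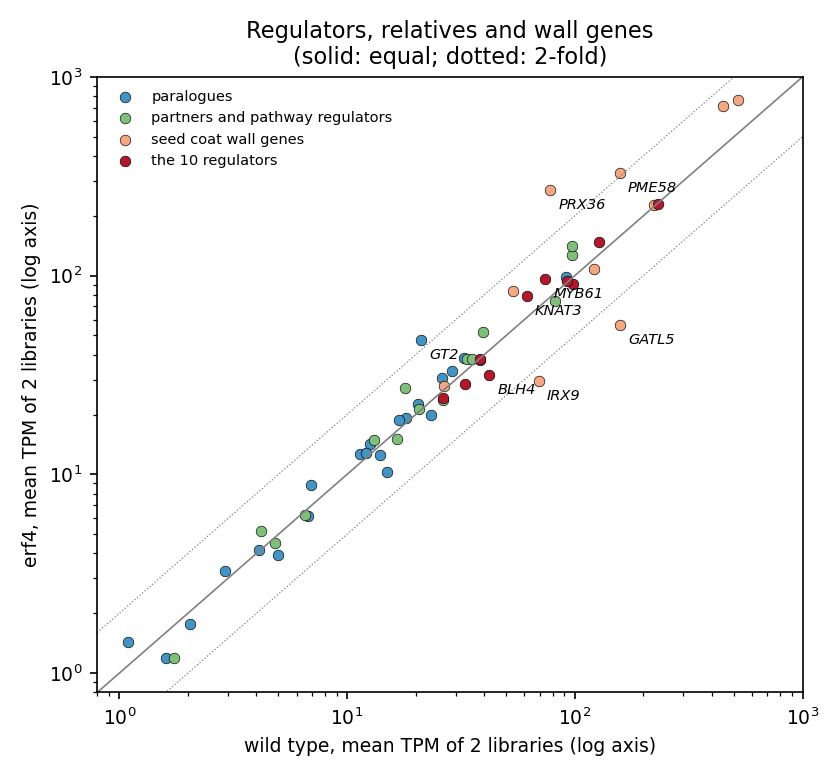
Mean TPM of the 2 libraries labelled erf4 against that of the 2 wild-type libraries (log axes) for the tested genes of the 4 lists; the solid line marks equal levels and the dotted lines a 2-fold difference. The 10 regulators lie close to the line of equal levels, with BLH4 the lowest relative to it (ratio 0.75), while PRX36 (3.44), GT2 (2.24) and PME58 (2.08) lie above the upper dotted line and GATL5 (0.36) and IRX9 (0.42) below the lower one.

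The start regions of the 10 genes, from 250 bases before to 50 bases after the annotated gene start (TAIR10.1), were searched on both strands for GCCGCC, the core of the GCC box bound by ethylene response factors, for TGACAG, bound by homeodomain proteins of the KNOX and BELL type, and for AC elements, bound by MYB proteins. The AC elements searched were element I (ACCTACC), element II (ACCAACC) and element III (ACCTAAC), and no motif contains another. None of these motifs occurred in any of the 10 windows, which says only that the letters are not there. GCCGCC was present in 2.57% of 27443 protein-coding genes' windows, TGACAG in 7.00%, and at least 1 of the 3 AC elements in 7.29%.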

How the data were processed

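The authors deposited TPM per gene for 4 libraries, rounded to 2 decimals, with the mean of each genotype, which entered no test. Tools named in the submitters' processing notes are fastp, HISAT and RSEM; no version or genome build is given in the sources used here. TPM keeps no read number, so depth is unknown and no counting interval is given. A value of exactly 0 can be an estimate that failed. Groups and replicate numbers came from the titles.

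Genes with at least 1 TPM in at least 2 libraries were fitted on log2(TPM + 1) by genotype alone in R 4.3.3, using the two-sided moderated test of limma 3.58.1 with a variance trend and Benjamini-Hochberg adjustment over all 20804 genes; the log2(TPM + 1) scale understates changes of low genes. The 10 genes, the lists, the pairs and the naming rule (all members, the 3 smallest p of each list, pair partners, 3 nearest profiles) were chosen with earlier results of these data known. Names, sequences and overlaps came from RefSeq TAIR10.1, matched by locus for 98.1% of identifiers, with Biopython 1.88. Alternatives covered the pseudocount (0.1, 5), the filter (none; mean TPM of at least 5), rescaling by median of ratios and by quantiles, no variance trend, an adjusted p of 0.1, the replicate number as a block, and leaving out each library.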

Additional observations from a re-analysis of the deposited data

How the results depend on the processing

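None of the 10 regulators was called under any alternative (smallest adjusted p = 0.207, MYB61 with the replicate block; range 0.207 to 1.00 for that gene). Same-numbered libraries deviated together across 20804 genes (r = 0.35), which are not independent replicates. Across the 10 regulators r was 0.04. The labels do not say that the numbers pair libraries. With the replicate block, 1083 genes were called in place of 0. GT2 was among them (limma adjusted p = 0.00139). Under the other alternatives that kept all 4 libraries, its limma adjusted p was 0.433 to 0.626. Leaving out 1 library gave 0 to 8 called genes, 7 with wild type replicate 1 omitted and 8 with replicate 2 omitted, the lone library being assumed to vary like the others. Genes below the wild-type range numbered 1 as deposited, 3 after median-of-ratios rescaling (AP2, NARS2 and BLH4), 2 after quantile normalization, and 1 to 7 with 1 library left out; genes above it numbered 3 as deposited, 2 after median-of-ratios rescaling (MYB61 and KNAT3), 3 after quantile normalization and 3 to 6 with 1 library left out. The shares of all tested genes outside the range were computed only as deposited, 12.2% below it and 21.5% above it. Without such shares for the other settings, the changed counts cannot be told apart from a shift of all genes. The median log2 fold change of the 10 genes ran from -0.21 to 0.14 with 1 library left out. The sign of genes near 0 was unstable: LUH stood at -0.0307 and -0.0445 after the 2 rescalings, and with 1 library left out NARS1 ran from -0.20 to 0.15, NARS2 from -0.24 to 0.0136, DF1 from -0.30 to 0.0921, BLH2 from -0.19 to 0.14 and LUH from -0.22 to 0.24. Of 110 values for single genes and pairs under the alternatives, 13 changed sign. Of these, 11 were for single genes and 2 for ratios within pairs (KNAT3 to KNAT7 and LUH to LUG, both moving by less than the spread between replicates). All 13 came from a rescaling or a left-out library. The 110 also hold the replicate block, which leaves each estimate unchanged, so the share understates how often the sign can move. The rescalings moved the median of all genes by at most 0.03 (log2). The unknown depth leaves counting error unmeasured.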

Other observations

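The genes with the most similar profiles over the 4 libraries were found for MYB61, KNAT3 and BLH4, as the smallest root-mean-square distance between centred log2(TPM + 1) values among 16122 other tested genes with a mean of at least 5 TPM. For MYB61 they were AGP24 (AT5G40730), an arabinogalactan protein gene with 128 and 142 TPM in wild-type seeds and 180 and 166 TPM under the erf4 label (distance 0.0168), and the genes AT1G70335 and AT4G32870. For KNAT3 they were AT3G03550, the histone acetyltransferase gene HAG2 (AT5G56740) and AT3G51290, at distances of 0.0173 to 0.0244. For BLH4 they were PHO1;H1 (AT1G68740), with 41.3 and 45.0 TPM against 23.1 and 41.0 TPM (distance 0.0208), the villin gene VLN5 (AT5G57320) and AT1G14755, all low in erf4 replicate 1. Of the 16122 genes, 347 lay within a distance of 0.1 of MYB61, 548 of KNAT3 and 86 of BLH4. Within a distance of 0.05 there were 44, 45 and 11. Likeness over 4 libraries therefore does not single out the genes named.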
